A study of Mus musculus with 2 samples.

Results

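The circadian clock genes Arntl, Clock, Per1, Per2, Per3, Cry1, Cry2, Nr1d1, Nr1d2 and Dbp were compared between unloaded mouse chondrocytes in primary culture and the same kind of culture 24 h after it had been stretched. The 10 genes were set by name, and 11 array probes carried a RefSeq transcript of one of them, out of 20656 genes named on the arrays. The chondrocytes came from C57BL/6J mice 6 days of age. They had been seeded on fibronectin in elastic silicone chambers 48 h before a strain of 10% elongation at 0.5 Hz was applied for 30 min, and the control RNA was taken before that strain. Both groups shared strain, age, isolation and coating. RNA of each time point was measured on 1 one-colour array, so a difference between the arrays is that of 2 RNA samples, with neither a replicate nor a test behind it. How many mice or chambers gave the RNA of an array, the time of day of sampling and whether the medium held serum for these arrays are not given in the sources used here. An unloaded culture of the later time was not part of the arrays analysed here, so the strain and a further day in culture cannot be told apart.

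The mammalian clock is a feedback loop of transcription that runs in nearly every cell, cartilage included, with a period of about a day. The proteins BMAL1 (the product of Arntl) and CLOCK pair on the E-box and switch on the Period and Cryptochrome genes, whose proteins return to the nucleus and repress that pair. A further arm is formed by the REV-ERB receptors, encoded by Nr1d1 and Nr1d2, which repress Arntl through the ROR element. Dbp is an output of the loop: it is switched on through E-boxes and encodes a factor that binds the D-box. Because the loop returns to its starting phase about once a day, RNA taken about a day apart meets a regular, uninterrupted rhythm near the same phase. A culture whose cells are not in step gives a level averaged over phases.

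Promoters of several of these genes hold the letters of elements through which the loop acts on itself. Stretches with such letters are shown here because these elements define the arms by which the results are ordered. The sequences are those of RefSeq on GRCm38.p6, read 5′ to 3′ on the gene's own strand. Windows from 250 bases before to 50 bases after a transcript start were matched for 9 of the 10 genes, in 13 windows. Per2 was not matched. The letters searched, on both strands, were CACGTG for the E-box, CACGTT for the E′-box, TTATGNAA for the D-box, ANTNGGTCA for the ROR element and TGACGTCA for the cyclic AMP element, and capitals mark a match. No matches overlapped. Dbp is shown because its value differed most between the arrays, while Ciart encodes a repressor described below, with the lowest ratio of the other loop genes.
Per1, chr11:69098769-69098948, + strand, from 180 bases before the start to the last base before it, with an E-box 166 and a D-box 24 bases before the start: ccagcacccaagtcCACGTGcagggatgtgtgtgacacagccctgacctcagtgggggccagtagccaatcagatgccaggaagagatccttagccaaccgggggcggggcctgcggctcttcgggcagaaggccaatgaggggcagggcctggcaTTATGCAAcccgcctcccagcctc
Per3, chr4:151044786-151044885, - strand, with D-boxes 205 and 158 bases before the start: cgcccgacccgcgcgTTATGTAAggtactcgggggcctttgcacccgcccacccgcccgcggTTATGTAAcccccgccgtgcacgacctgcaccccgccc
Cry1, chr10:85185085-85185154, - strand, with an E′-box on the opposite strand 79 and an E-box 60 bases before the start: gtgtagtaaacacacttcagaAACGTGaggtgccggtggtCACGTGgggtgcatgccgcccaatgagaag
Cry2, chr2:92434200-92434259, - strand, with an E′-box on the opposite strand 166 bases before the start: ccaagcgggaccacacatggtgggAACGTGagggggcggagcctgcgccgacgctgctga
Nr1d1, chr11:98775378-98775437, - strand, with an E′-box on the opposite strand 28 bases before the start: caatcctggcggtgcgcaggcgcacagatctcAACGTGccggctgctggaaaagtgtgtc
Arntl, chr7:113207528-113207557, + strand, with a ROR element from base 29 of the transcript: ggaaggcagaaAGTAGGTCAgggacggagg
Dbp, chr7:45705127-45705246, + strand, from 120 bases before the start, with no match: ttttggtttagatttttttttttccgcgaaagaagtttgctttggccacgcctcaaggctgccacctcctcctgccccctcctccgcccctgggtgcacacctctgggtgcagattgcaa
Ciart, chr3:95882249-95882368, - strand, with E-boxes 116, 58 and 44 bases before the start: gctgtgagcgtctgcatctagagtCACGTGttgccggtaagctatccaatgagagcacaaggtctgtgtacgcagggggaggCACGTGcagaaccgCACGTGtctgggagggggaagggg

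Among the 9 matched genes, the E-box was found in 2, the E′-box in 3, the D-box in 2 and the ROR element in 1, while Clock, Nr1d2 and Dbp held none of the searched letters in these windows. Of all 32851 promoter windows in the table, 7.15% held the E-box letters, 4.68% the E′-box, 3.38% the D-box, 2.24% the ROR element and 1.79% the cyclic AMP element. These shares are per window, whereas a gene was counted when any of its windows matched, so the 2 are not directly comparable. A match describes letters in a window and is no measurement of binding.

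A total of 14227 named genes were detected, meaning that the brightest probe of the gene was well above background on both arrays. All 10 clock genes were among them. Intensities are the scanner software's processed values, and where a pair is given the value before loading comes before that at 24 h. The log2 ratio is the value at 24 h minus the value before loading, each relative to its own array's 75th percentile, which lay at 466.4 before loading and 466.2 at 24 h. The error given is the within-array error of the ratio, combined from the software's error of both spots. Its median over the detected genes was 0.20, and it holds no variation between cultures. Chondrocyte markers were bright: all 8 listed, among them Col2a1 and Acan, were detected, with intensities from 5891 to 499543 before loading and from 5050 to 474876 at 24 h. Their median log2 ratio was -0.01. Col11a1 was lower (-0.82, error 0.20) and Matn1 higher (0.56, error 0.20) at 24 h, each by more than 2 errors. Of the listed markers of other cell types, 5 of 5 for fibroblasts, 4 of 5 for macrophages, 2 of 4 for endothelium, 3 of 4 for skeletal muscle and 1 of 4 for erythroid cells were detected. Their summed intensity was 128515 and 130743 for fibroblasts, 4090 and 3899 for macrophages, 12884 and 12505 for endothelium, 1256 and 1179 for skeletal muscle and 63.9 and 59.0 for erythroid cells, before loading and at 24 h respectively. Cd68, the other listed macrophage marker, was matched to no probe and so was not measured. The macrophage sum was mostly that of Csf1r, which read 3646 and 3288. By contrast, 3 of the 4 detected macrophage markers were higher at 24 h, and the median log2 ratio of the 4 was 0.27. Of these, Ptprc was more than 2-fold higher at a dim 20.9 and 46.1 (log2 ratio 1.14, error 0.35), and Lyz2 was higher by more than 2 errors (0.46, error 0.20). In the muscle list Acta1 read 1001 and 806, while Myh3 was higher at 24 h (0.64, error 0.21). The endothelial sum was mostly that of a single Kdr probe, which read 12774 and 12375. Another Kdr probe, at 5.05 and 5.63, was not detected, so the probes of this gene disagreed. The defining endothelial marker Cdh5 was well above background on neither array. Cycling cell markers differed most, with 8 of 8 more than 2-fold lower at 24 h and a summed intensity of 23608 before loading against 6322 at 24 h. The part of these shifts in the clock gene values was not tested.

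None of the 10 clock genes differed more than 2-fold between the arrays, beside 2.5% of all detected genes that did (0.668% higher and 1.83% lower). Dbp was the one gene of the set whose ratio was larger than 2 within-array errors, against 16.4% of all detected genes (7.24% higher and 9.12% lower). Ratios of 7 genes were smaller than 1 within-array error, as were those of 57.2% of all detected genes, and Per2 and Cry1 lay between 1 and 2 errors. For the 10 genes the median of the ratios was -0.06 (log2), beside -0.01 over all detected genes, and it lay between -0.06 and 0.06 across the scalings tried. With the exception of Dbp, the ratios fell between -0.29 and 0.11. These ratios all lay within 1.22-fold of no difference in either direction, as did 69.0% of all detected genes. As in any bulk sample, a lower value could mean less RNA per cell or fewer cells that hold it, and these cannot be told apart.

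**Figure D1:**
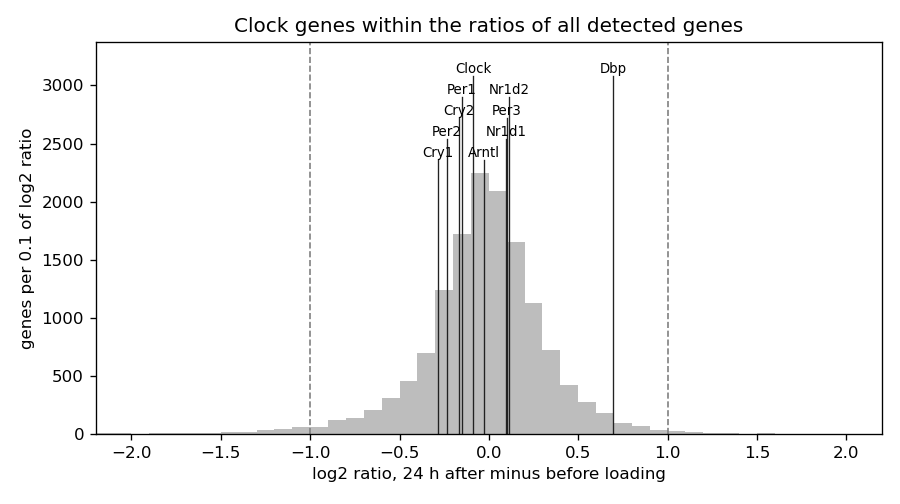
Number of detected genes (vertical axis) per 0.1 of log2 ratio, 24 h after minus before loading (horizontal axis, drawn from -2.2 to 2.2), with a line for each clock gene at its ratio and dashed lines at 2-fold. Lines of 9 clock genes lie in the central mass between -0.29 and 0.11, and that of Dbp lies apart at 0.70.

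Arntl and Clock encode the activating pair. The intensity of Arntl was 573 before loading and 562 at 24 h, which gave a log2 ratio of -0.03 (error 0.20). Clock read 647 before loading and 609 at 24 h, a log2 ratio of -0.09 (error 0.20). Neither difference reached 1 within-array error, and both changed sign when arrays were scaled by their medians or to spike-in controls. The ratios of the pair differed from each other by 0.06 (error 0.29). The Clock spot was the only one of the set with at least 3 neighbours more than 2-fold lower, 4 of 18 detected spots within 100 µm, whose median log2 ratio was -0.12, and relative to these Clock was higher (0.03).

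The 3 Period genes encode repressors of the loop, and Per1 and Per2 respond quickly to synchronising signals such as serum and glucocorticoids. Per1 read 2024 and 1822, a log2 ratio of -0.15 (error 0.20). For Per2 the values were 76.8 and 65.2, a log2 ratio of -0.24 (error 0.23), and its probe was the dimmest of the set, brighter than 57.1% of all probes. Per3 read 123 before loading and 132 at 24 h, a log2 ratio of 0.10 (error 0.21). Thus Per1 and Per2 were lower and Per3 was higher at 24 h under every setting tried, but the distance from Per3 to Per2 was 0.34 with an error of 0.31, and that from Per3 to Per1 was 0.25 with an error of 0.29. No order among the 3 genes could be read at this precision.

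The Cryptochromes are the partners of the Period proteins and the stronger repressors of the activating pair. Cry1 had the lowest ratio of the set, with intensities of 109 and 89.7 and a log2 ratio of -0.29 (error 0.22) or 1.22-fold lower. Of all detected genes, 16.7% had a lower ratio than Cry1. Cry2 read 5128 and 4568, a log2 ratio of -0.17 (error 0.20). Both genes were lower under each scaling and background correction tried, and their ratios differed by 0.12 (error 0.30). Spots around Cry2 were lower too, the median being -0.22 (log2) in the 21 detected ones within 100 µm, and relative to these neighbours Cry2 was higher by 0.058.

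The REV-ERB receptors repress Arntl and compete with the ROR receptors for the ROR element shown above. Nr1d1 (REV-ERBα) read 166 and 177, a log2 ratio of 0.10 (error 0.21). Nr1d2 (REV-ERBβ) read 890 and 962, a log2 ratio of 0.11 (error 0.20). The values of this pair were 0.02 apart (error 0.29), the closest of the paralog pairs compared, and both ratios were smaller than their errors. The spots around Nr1d1 were higher by a median of 0.24 over 12 detected spots, and relative to these Nr1d1 was lower (-0.14). Relative to its own neighbours Nr1d2 was higher (0.16), so the pair lay further apart on that measure. No difference between repressor and target in this arm could be read at this precision: the ratio of Nr1d1 exceeded that of Arntl by 0.12 with an error of 0.29.

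Dbp encodes a PAR bZIP factor, whose RNA swings among the widest of clock outputs in many tissues. Its brightest probe read 5286 before loading and 8562 at 24 h, a log2 ratio of 0.70 (error 0.20) or 1.62-fold higher. The other probe of the same transcript read 5598 and 7923, a log2 ratio of 0.50 (error 0.20) or 1.42-fold higher. On both probes the array at 24 h was the higher one by more than 2 within-array errors, and the distance between the probes, 0.19, matched the median range of 0.19 over 3633 genes with several detected probes. The probe with the larger ratio represents Dbp here because its mean over both arrays was marginally higher; before loading the other probe was the brighter. Among all detected genes, 2.19% had a higher ratio than the brightest probe of Dbp and 5.27% a higher ratio than the other. Each probe had a single spot. No spot among the 15 and 17 detected ones around the Dbp probes differed more than 2-fold, and relative to the median of these neighbours the ratios were 0.58 and 0.39. The latter, on the other probe, was within 2 within-array errors (0.41).

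**Figure D2:**
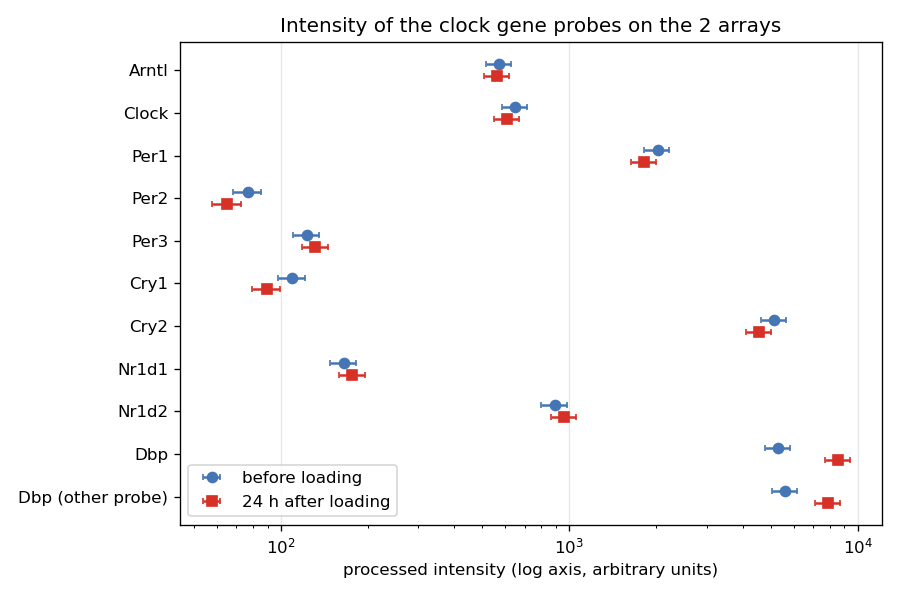
Processed intensity (log horizontal axis, arbitrary units) of each of the 11 clock gene probes before loading (circles) and 24 h after (squares), with bars of 1 software error of the single spot. Symbols of the 2 arrays overlap within their bars for all genes except Dbp, where both probes lie higher at 24 h. Brightness also depends on the probe and does not rank the genes.

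Differences between the ratios of 2 genes do not depend on a single scaling factor per array, though they can move under quantile or loess normalization. On its brightest probe, the ratio of Dbp exceeded that of Arntl by 0.72 (error 0.29), that of Clock by 0.78 (error 0.29), that of Per1 by 0.85 (error 0.29), that of Nr1d1 by 0.60 (error 0.29) and that of Cry1 by 0.98 (error 0.30). On that probe the distances to all 9 other clock genes were larger than 2 within-array errors. All 9 share the ratio of Dbp, the largest of the set, so they are not separate findings. The other, nearly equally bright probe kept 5 of the 9, namely Clock, Per1, Per2, Cry1 and Cry2. From Arntl it lay 0.53 away (2 errors, 0.58), from Per3 0.40 (0.59), from Nr1d1 0.40 (0.59) and from Nr1d2 0.39 (0.58), all within 2 errors. With the mean of both probes, judged with the error of the brightest Dbp probe alone, 6 of the 9 were kept, without Per3, Nr1d1 and Nr1d2. By contrast, Arntl and Clock, the Period genes, the Cryptochromes and the REV-ERB genes lay within 2 errors of each other inside their families. Thus Dbp lay above Clock, Per1, Per2 and both Cryptochromes on either probe, with neighbouring spots left out of account. On the other probe the distance to Clock, 0.588, only just passed 2 errors (0.578). Relative to neighbouring spots the Dbp probes came to 0.58 and 0.39, Clock to 0.03 and Cry2 to 0.058. On that measure Per1 came to -0.25, Per2 to -0.21 and Cry1 to -0.13, and the distances were not recomputed. The distance of Dbp from Arntl, Per3 and the REV-ERB genes depended on the probe. No difference inside the families could be shown at this precision.

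The other genes of the loop were taken from lists of 10 genes, of which 8 were detected. Npas2, which can stand in for Clock, and Arntl2, a paralog of Arntl, were well above background on neither array, with intensities of 4.43 and 3.60 for Npas2 and of 10.7 and 10.4 for Arntl2. None of the 8 detected genes passed 2-fold. Ratios beyond 2 within-array errors were found for 0 genes that were higher and 3 that were lower, beside 7.24% and 9.12% of all detected genes, and the median was -0.34.

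**Figure D3:**
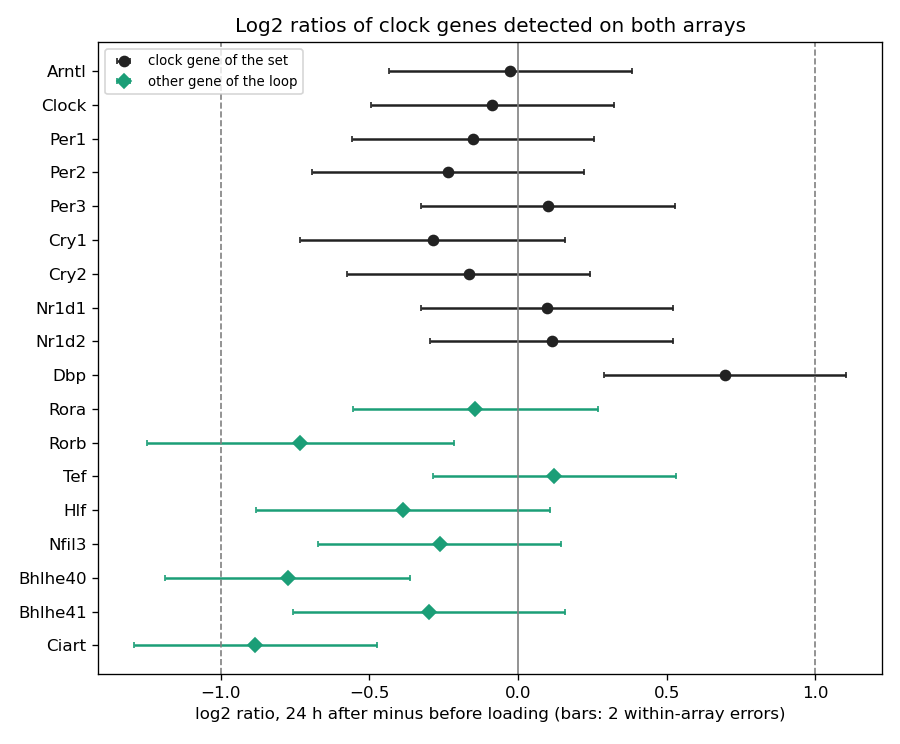
Log2 ratio, 24 h after minus before loading (horizontal axis), of the 10 clock genes (circles) and of 8 other detected genes of the loop (diamonds), with bars of 2 within-array errors and dashed lines at 2-fold. The bar of Dbp lies above 0 and those of Rorb, Bhlhe40 and Ciart below it, while the others cross 0.

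Among the other repressors, Ciart and Bhlhe40 were the 2 genes with the lowest ratios. Ciart, also called CHRONO, is bound and switched on by the activating pair and represses it in turn. Its intensity was 1050 before loading and 569 at 24 h, a log2 ratio of -0.88 (error 0.20) or 1.84-fold lower, and 2.35% of all detected genes had a lower ratio. Bhlhe40 (DEC1), which competes for E-boxes and also answers to hypoxia and growth signals, read 387 and 226, a log2 ratio of -0.77 (error 0.21). Its relative Bhlhe41 (DEC2) read 110 and 89.4, a log2 ratio of -0.30 (error 0.23), and -0.04 on its dimmer probe. Ciart and Bhlhe40 remained lower under each scaling, background correction and source of values tried, between -0.89 and -0.76 for Ciart and between -0.78 and -0.59 for Bhlhe40. Dbp and Ciart, both E-box outputs, lay on opposite sides: their ratios were 1.58 apart (error 0.29), or 2.99-fold. They hold the highest and the lowest ratio of the 18 detected genes of the set and the loop lists. A wide distance between them follows from that choice and is no separate finding. Per1, which holds an E-box in the stretch shown, lay 0.73 above Ciart (error 0.29). E-box letters were also found in promoter windows of Cry1, Tef and Bhlhe41, with log2 ratios of -0.29, 0.12 and -0.30.

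The ROR receptors Rora and Rorb activate through the same element that the REV-ERB receptors repress. Rora read 367 and 332, a log2 ratio of -0.14 (error 0.21). Rorb was dim, at 66.6 and 40.1, with a log2 ratio of -0.73 (error 0.26), and -0.96 on a dimmer probe still. The ratio of Rora exceeded that of Rorb by 0.59 (error 0.33), which is within 2 errors. Rorb depended on the background correction, since its ratio came to -0.28 with normexp correction. Arntl, a target of these receptors, had a ratio of -0.03 as given above.

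The other D-box factors had ratios below that of Dbp. Tef, a PAR bZIP paralog of Dbp, read 14547 and 15830, a log2 ratio of 0.12 (error 0.20). Hlf, the remaining paralog, read 75.8 and 57.9, a log2 ratio of -0.39 (error 0.25). Nfil3, which represses through the D-box, read 2323 and 1934, a log2 ratio of -0.26 (error 0.20). Dbp lay above Hlf by 1.08 (error 0.32), above Nfil3 by 0.96 (error 0.29) and above Tef by 0.57, just under 2 errors (0.58), so that a difference from Tef was not shown. On the other Dbp probe the distance to Tef was 0.38. Per1 and Per3, whose promoters hold D-box letters, had log2 ratios of -0.15 and 0.10.

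Of 7 enzymes that act on clock proteins, all were detected, 1 was more than 2-fold higher and 0 were lower, beside 0.668% and 1.83% of all detected genes. Btrc, a ubiquitin ligase subunit that marks Period proteins for destruction and serves many other pathways, gave 169 and 383 on its brightest probe, a log2 ratio of 1.18 (error 0.21). Its other probe gave 84.4 and 97.2, a log2 ratio of 0.20 (error 0.23), so that the probes disagreed. Csnk1d and Csnk1e, the kinases that set the pace of the Period proteins, had log2 ratios of 0.04 and 0.32. A dimmer probe of Csnk1d, for another transcript, gave -0.57.

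Among 6 clock-controlled output genes, all detected, 0 passed 2-fold and 1 was lower by more than 2 within-array errors, namely Klf10, with a log2 ratio of -0.68 (error 0.20), beside 2.5% of all detected genes past 2-fold and 9.12% lower by more than 2 errors. Wee1, an E-box output that encodes an inhibitor of mitotic entry, had a ratio of 0.07 beside the more than 2-fold lower cycling markers. Nampt, an E-box output of NAD synthesis, had -0.13. Of 6 glucocorticoid-induced genes, all detected, 0 passed 2-fold, and their log2 ratios lay between -0.51 and 0.38 with a median of -0.11. Dusp1 (-0.51, error 0.20) was the one beyond 2 errors, while Fkbp5 had -0.23 and Klf9, which is in both lists, 0.38. Over the 25 detected genes of all companion lists, 1 was higher and 5 lower by more than 2 errors, beside 7.24% and 9.12% of all detected genes.

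**Figure D4:**
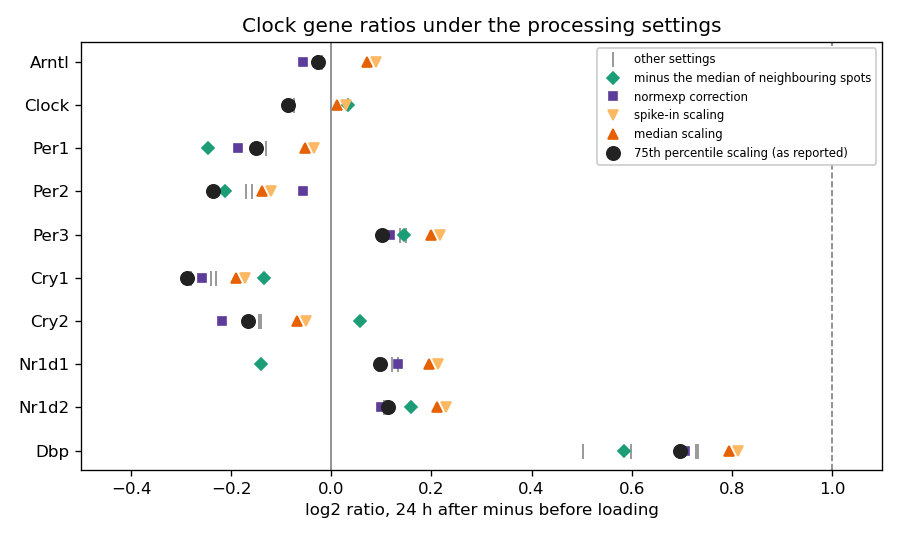
Log2 ratio of each clock gene, 24 h after minus before loading (horizontal axis), as reported (black circles) and under each other processing setting (other symbols), with a dashed line at 2-fold. Ratios of Dbp stay between 0.50 and 0.81, and those of the other 9 genes stay between -0.29 and 0.23, some crossing 0.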

How the data were processed

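RNA was measured on SurePrint G3 Mouse arrays, 1 per time point, of a single slide. Per spot, the deposited value is the intensity processed by Agilent Feature Extraction 10.10.1.1, background-subtracted and not normalized between arrays. A deposited table of the authors holds the same intensity values within 0.497%. Spots with outlier flags (255) were left out and spots of one probe averaged on the log2 scale. Accessions, without versions, were named through RefSeq on GRCm38.p6, which matched 27229 of 55678 probes. A gene's brightest probe over both arrays represents it. The clock genes and companion lists were chosen with earlier results of these data known. All clock genes are named, and companions of the loop where detected, or past 2-fold; other companions named were chosen after their values were seen, and some listed companions are not reported here. A neighbour is a spot well above background on both arrays within 100 µm (3 µm per pixel). An area was called disturbed where 3 or more neighbours of a spot passed 2-fold the same way. Calls of genes past 2-fold were tested on simulated data with planted changes well beyond 2-fold. That test does not bear on differences as small as those of the clock genes. Replicate spots were available for 380 probes (8 spots or more), and their ratios had a median SD of 0.11 (log2). The number of arrays limits the precision. Normexp correction (offset 50, on the median spot signal), quantile normalization and cyclic loess were run in limma 3.58.1, other steps with scipy 1.17.1, pandas 2.3.3 and numpy 2.4.6 under Python 3.11.15.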

Additional observations from a re-analysis of the deposited data

How the results depend on the processing

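Results were recomputed under 11 other settings and some that were chosen after seeing the data (a threshold of 2 within-array errors, the other probe of Dbp and ratios relative to neighbouring spots). Median scaling raised every log2 ratio by 0.10 and spike-in scaling by 0.12. The number of clock genes past 2-fold was 0 in each direction under all 11 settings, and 1 was higher and 0 lower by more than 2 within-array errors under those run for that threshold. Dbp stayed between 0.50 and 0.81. That range leaves out its other probe relative to neighbouring spots, which came to 0.39 and was within 2 errors (0.41). Of the 9 other clock genes, Dbp exceeded 9 by more than 2 errors and 5 on its other probe, a comparison added after seeing the data; quantile normalization lost Per3 and normexp correction Nr1d1, leaving 8 each. Distances from Dbp to the other clock genes were not recomputed relative to neighbouring spots. The median of the clock genes turned positive with median scaling (0.04) and with scaling to spike-in controls (0.06). Relative to neighbouring spots, Cry2 moved to 0.058 and Nr1d1 to -0.14; the cause was not tested. Leaving out disturbed areas removed Clock. Among all detected genes, 95 higher and 260 lower became 38 and 118 with normexp correction, 23 and 95 when 2-fold had to be passed by 2 errors, 192 and 507 when 1 array sufficed for detection, and 492 and 983 with no filter on dim probes; the last 2 settings add dim genes by construction. Btrc, the 1 companion gene past 2-fold, was no longer so with normexp correction, with the mean over its probes or with the allowance of 2 errors, which left 0 companions. No paired analysis was possible because each time point has a single array. Signal limits dim genes: spots counted as well above background started at an intensity of 17.3 before loading and of 17.8 at 24 h.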
